A study of Mus musculus with 7 samples.

Results

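Immediate early genes were read as a measure of how far whole mouse embryos differed in recent cell signalling, handling or acute stress at the time of freezing. The genes were the 10 rows of the deposited expression table whose mouse gene symbol was Fos, Fosb, Jun, Junb, Egr1, Ier2, Atf3, Dusp1, Nr4a1 or Btg2, out of 25461 genes in all. They were selected by name, with earlier results of these data known. Each was measured in 7 whole embryos at embryonic day (E) 11.5 of the B6C3F1 strain, of which 3 were SLMAP3 knockout (KO) and 4 were wild type (WT). SLMAP3 is the long isoform of a tail-anchored membrane protein. Its loss came from LoxP sites around exon 3 of SLMAP and a CMV-cre allele that was bred out before heterozygotes were crossed, and the shorter isoforms remained. Tails had been taken for genotyping, the rest of each body gave 1 library, and no embryos were pooled. The mothers were anaesthetised and embryos were dissected in ice-cold buffer before snap-freezing, so every embryo, WT ones included, passed through an interval in which such genes can be transcribed. How long that interval was for each embryo is not given in the sources used here.

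Immediate early genes are transcribed within minutes of a signal and need no newly made protein for it. Growth factors, depolarisation, oxygen shortage, tissue dissection and other stresses act through kinases on factors already bound at their promoters, among them serum response factor (SRF) and the cyclic AMP response element binding protein (CREB). Most of their mRNAs are short-lived, and several encode transcription factors (Fos, Fosb, Jun and Junb of the AP-1 complex, Egr1, Atf3 and Nr4a1), whereas Dusp1 and Btg2 encode inhibitors that limit signalling and cell division.

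The promoters of the 4 genes whose KO embryos all lay above all WT embryos are printed here, because signals reach these genes through such short elements. Each line holds the 250 bases before the RefSeq transcription start (GRCm38.p6), written 5′ to 3′ on the strand of the gene. Capitals mark TGACG or its complement, which is the core of the cyclic AMP response element (CRE), the Fos TATA box (TATAAA), and in Atf3 a match to TGATGNAA, the form of site that the stress factor ATF4 binds. They lie at chr12:85473640-85473889 on the plus strand for Fos, chr8:84978749-84978998 on the minus strand for Junb, chr15:101266596-101266845 on the plus strand for Nr4a1, and chr1:191183334-191183583 on the minus strand for Atf3.
Fos: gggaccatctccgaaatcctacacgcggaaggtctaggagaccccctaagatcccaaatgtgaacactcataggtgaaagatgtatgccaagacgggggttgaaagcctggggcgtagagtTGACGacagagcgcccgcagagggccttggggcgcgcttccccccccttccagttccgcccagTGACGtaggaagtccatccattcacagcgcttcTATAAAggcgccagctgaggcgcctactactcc
Junb: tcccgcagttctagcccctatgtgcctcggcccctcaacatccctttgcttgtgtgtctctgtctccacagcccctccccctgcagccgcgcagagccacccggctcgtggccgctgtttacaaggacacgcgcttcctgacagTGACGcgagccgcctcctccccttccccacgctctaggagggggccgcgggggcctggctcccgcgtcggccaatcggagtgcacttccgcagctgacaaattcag
Nr4a1: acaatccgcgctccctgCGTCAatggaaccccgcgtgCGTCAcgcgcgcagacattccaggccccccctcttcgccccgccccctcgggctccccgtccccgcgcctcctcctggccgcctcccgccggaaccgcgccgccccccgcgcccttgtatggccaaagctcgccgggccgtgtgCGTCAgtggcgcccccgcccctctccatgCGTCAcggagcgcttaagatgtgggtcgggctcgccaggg
Atf3: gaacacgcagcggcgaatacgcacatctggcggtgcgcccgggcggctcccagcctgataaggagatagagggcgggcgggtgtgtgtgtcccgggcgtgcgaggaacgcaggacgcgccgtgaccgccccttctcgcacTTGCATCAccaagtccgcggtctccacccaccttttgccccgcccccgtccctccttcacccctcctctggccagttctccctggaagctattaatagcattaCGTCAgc

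Of the 10 genes, 8 had a promoter in the RefSeq table, and Egr1 and Ier2 did not. The core TGACG, searched on both strands, was present in 7 of the 8 and in 17.8% of the 32851 promoters of the same window, and only Jun lacked it. It includes every complete CRE. Nr4a1 held 4 copies and Fos 2, whereas the complete palindromic CRE, TGACGTCA, occurred in Btg2 and Dusp1, against 1.55% of all promoters. No promoter of the 8 held TGANTCA, the AP-1 site (6.75% of all), or the CArG box that SRF binds (1.47% of all). The Atf3 window was the only one of the 8 with TGATGNAA (3.45% of all), read on its opposite strand at -110 to -103 from the start. The TATA box of Fos lay at -33 to -28 (12.4% of all). These are matches of letters in a short window, not measured binding sites.

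The 7 libraries were close in scale. Their values, in FPKM (fragments per kilobase of a transcript, made comparable for depth by the authors), summed to between 770063 and 861448, and the steps between low values put their relative depth at 0.81 to 1.22 of the average, without giving the number of reads. Slmap itself was lower in every KO embryo, at 16.0 to 19.6 FPKM, than in any WT embryo, at 22.8 to 31.2 FPKM, in values that cover all isoforms of the gene. Every library held transcripts of limb, heart, forebrain and trunk (all 7 genes of that list passed the filter), whereas the placental genes summed to between 1.48 and 2.72 FPKM, most of it Plac1. The embryos also differed in tissue content: the summed FPKM of 10 liver genes was 26.4 in KOAC10-5, 37.9 in KOAC10-7 and 44.1 in KOAC10-2, against 429 to 797 in the other 4 embryos. Most of these 3 low sums was Ttr, at 15.3, 32.3 and 35.3 FPKM, whereas Afp was at 5.18, 1.30 and 2.49 FPKM. Ttr followed genotype instead, at 14.4 to 15.3 FPKM in KO embryos and 32.3 to 53.1 FPKM in WT embryos. The order of the 3 low sums is therefore that of Ttr. In whole embryos, fewer cells of a type and less RNA per cell cannot be told apart. The number after KOAC in the embryo names (8, 9 or 10) is not explained in the labels. KOAC8 held 1 embryo of each genotype, KOAC10 held 2 of each, and KOAC9 held 1 WT embryo. The library number of KOAC10-2 stood apart from the run of numbers of the other 6.

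None of the immediate early genes differed between KO and WT embryos beyond the threshold, but all 9 that were abundant enough to test had a higher mean in KO embryos. Of all genes tested, 53.1% had a log2 fold change above 0. In most of the 9 the same KO embryo, KOAC10-8, had the highest value. Fosb fell below the filter of a mean of 1 FPKM and was not tested. Fos passed it, at a mean of 1.03 FPKM, only through the KO embryos (mean 1.38 FPKM, against 0.766 FPKM in WT embryos). The filter thus kept Fos and left out Fosb, whose mean was lower in KO embryos, and so had a part in the counts below and above. Limma on log2(FPKM + 1), adjusted over 16095 genes by the Benjamini-Hochberg method, called 0 of 9 at an adjusted p under 0.05, where 0.0373% of all genes were called. At an unadjusted p under 0.05, 5 of the 9 were higher in KO embryos and 0 lower, against 5.27% of all genes on the higher side and 6.19% on the lower. In 4 of the 9 (Fos, Junb, Atf3 and Nr4a1) the lowest KO embryo exceeded the highest WT embryo, against 5.61% of all genes. The median log2 fold change of the 9 genes was 0.34, and that of all genes tested was 0.01. The 9 genes are not independent of each other, as described further on, so these counts are descriptions and not tests of the group. The p-values measure the spread between embryos of unstated litters.

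**Figure D1:**
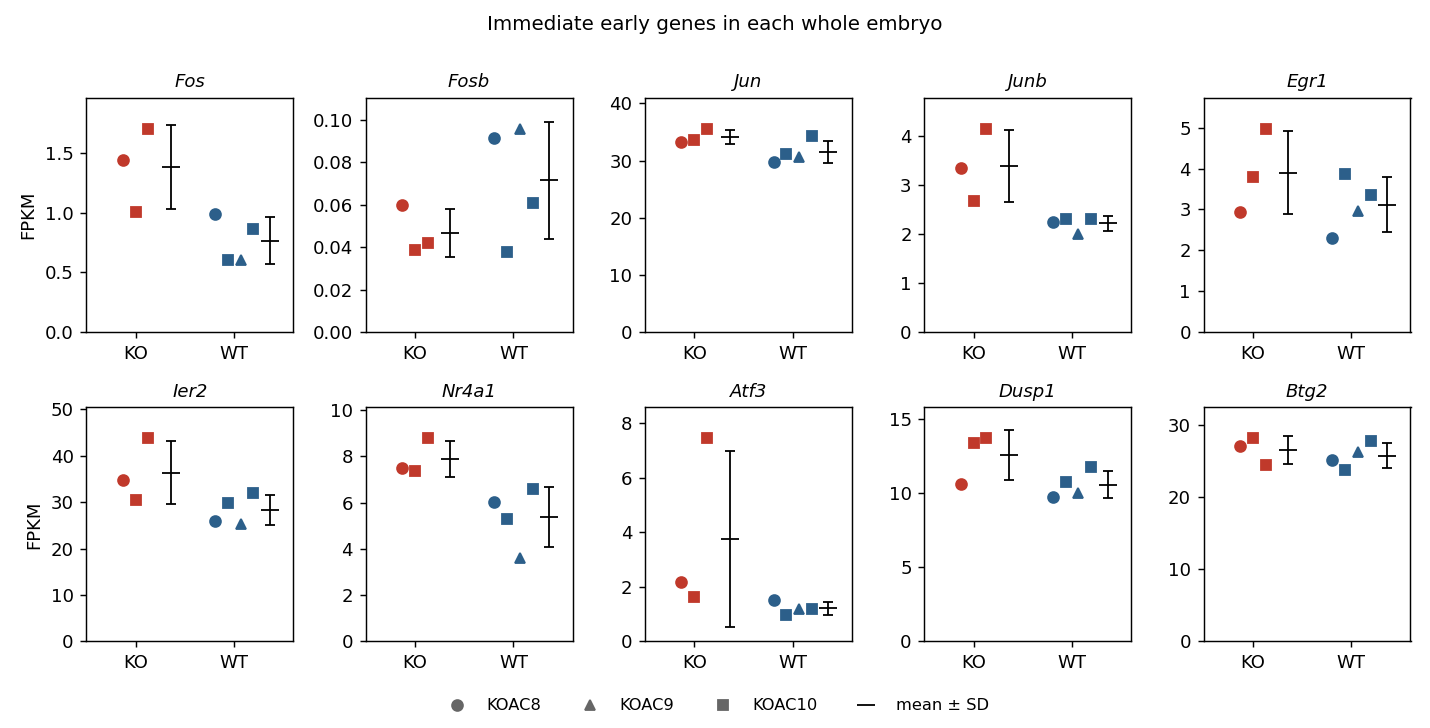
FPKM of each immediate early gene (vertical axis, from 0) in the 3 KO embryos (red) and 4 WT embryos (blue), with the mean ± SD in black; marker shape gives the number after KOAC in the embryo name. The KO embryo KOAC10-8, the rightmost red square, is the highest of all 7 embryos in 8 of the 10 panels.

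The partners of AP-1 were present at very different levels. Fos (ENSMUSG00000021250, chr12:85473890-85477273, plus strand, GRCm38) encodes the inducible partner whose transcript is nearly absent from resting cells. It was at 1.44 FPKM in the KO embryo KOAC8-6, 1.01 in KOAC10-5 and 1.70 in KOAC10-8, and at 0.992 FPKM in the WT embryo KOAC8-1, 0.606 in KOAC10-7, 0.6003 in KOAC9-1 and 0.865 in KOAC10-2. The groups did not overlap, although the lowest KO embryo and the highest WT embryo were nearly level. The means were 1.38 ± 0.352 FPKM (SD, n = 3) and 0.766 ± 0.195 FPKM (SD, n = 4), a ratio of 1.81. On the log2 scale KO embryos were higher by 0.43 with a standard error of 0.14 (limma, adjusted p = 0.354). On its own, the exact permutation test over the 35 divisions of the embryos gave Fos p = 0.0286 (two-sided), which is the smallest p that 3 against 4 embryos allow. In genes with overlapping groups, the exact permutation test (two-sided) gave p = 0.114 for Jun and for Ier2. The same exact permutation test gave p = 0.143 for Dusp1, 0.343 for Egr1 and 0.571 for Btg2. Groups that do not overlap give a p at or near the smallest possible. These values are not corrected over the 10 genes, and the share of all genes reaching them is not given. At these levels the pseudocount of 1 compresses the difference: with a pseudocount of 0.1 the log2 fold change of Fos was 0.77.

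Fosb (ENSMUSG00000003545, chr7:19302696-19310051, minus strand), a close relative of Fos that is induced in the same way, was hardly detected. Its values ran from 0.0388 to 0.0598 FPKM in KO embryos and from 0.0377 to 0.0958 FPKM in WT embryos. The groups overlapped, and its highest value was in the WT embryo KOAC9-1 (exact permutation test, two-sided, p = 0.286, n = 3 and 4). Fosb was thus the only one of the 10 genes whose mean was lower in KO embryos, at 0.0468 against 0.0714 FPKM.

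Jun (ENSMUSG00000052684, chr4:95049034-95052222, minus strand), the main partner of Fos proteins, was among the most abundant of the group. The KO embryos KOAC8-6, KOAC10-5 and KOAC10-8 held 33.2, 33.7 and 35.6 FPKM, and the WT embryos KOAC8-1, KOAC10-7, KOAC9-1 and KOAC10-2 held 29.8, 31.1, 30.7 and 34.3 FPKM. Only the WT embryo KOAC10-2 reached into the KO range. The log2 difference of KO from WT embryos was 0.12 with a standard error of 0.06 (limma, adjusted p = 0.508). Jun overlaps Junos on the opposite strand over part of its exon, and the library kit did not mark strand. Junos was listed at 2.00 to 2.81 FPKM.

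Junb (ENSMUSG00000052837, chr8:84974484-84978718, minus strand), an AP-1 partner with weaker activity than Jun, was at 3.35 FPKM in KOAC8-6, 2.68 in KOAC10-5 and 4.16 in KOAC10-8. The 4 WT embryos lay close together, at 2.25 FPKM in KOAC8-1, 2.32 in KOAC10-7, 2.00 in KOAC9-1 and 2.32 in KOAC10-2. All KO embryos were above all WT embryos. The means were 3.40 ± 0.736 FPKM (SD, n = 3) and 2.22 ± 0.151 FPKM (SD, n = 4), a ratio of 1.53. Junb had the smallest p of the group, with a log2 fold change of 0.44 and a standard error of 0.12 (limma, adjusted p = 0.312), and an exact permutation p of 0.0286 (two-sided, n = 3 and 4). Its exon overlaps the much more abundant Prdx2 on the opposite strand. Of the 50-base stretches of Junb transcripts, 5.77% were also found in Prdx2 transcripts on the other strand, where reads of the 2 genes cannot be told apart with this kit. Prdx2 was at 751 to 826 FPKM, with the lowest value in a KO embryo and overlapping groups (log2 fold change -0.05, standard error 0.06, limma, adjusted p = 0.744).

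The inducible factors outside AP-1 included the gene with the largest spread. Atf3 (ENSMUSG00000026628, chr1:191170296-191218039, minus strand) encodes a repressor that answers both mitogens and the integrated stress response. It was at 2.16 FPKM in KOAC8-6, 1.62 in KOAC10-5 and 7.45 in KOAC10-8, against 1.51 FPKM in the WT embryo KOAC8-1, 0.945 in KOAC10-7, 1.20 in KOAC9-1 and 1.17 in KOAC10-2. The KO embryo KOAC10-8 held 3.45 times as much as the next embryo, and the other KO embryos lay only a little above the WT range. The means were 3.74 ± 3.23 FPKM (SD, n = 3) and 1.21 ± 0.233 FPKM (SD, n = 4). The log2 fold change of Atf3 was 0.91 with a standard error of 0.38 (limma, adjusted p = 0.432; exact permutation p = 0.0286, two-sided). Without KOAC10-8 it was 0.39 (limma, adjusted p = 0.634), so that embryo alone made up more of the difference than the other KO embryos together.

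Nr4a1 (ENSMUSG00000023034, chr15:101254269-101274795, plus strand), an orphan nuclear receptor that is active without a known ligand, reached 7.50 FPKM in KOAC8-6, 7.37 in KOAC10-5 and 8.80 in KOAC10-8, the KO embryos. In the WT embryos KOAC8-1, KOAC10-7, KOAC9-1 and KOAC10-2 it was at 6.03, 5.28, 3.62 and 6.61 FPKM. The groups did not overlap, and the widest gap was at the low end, in KOAC9-1. The means were 7.89 ± 0.789 FPKM (SD, n = 3) and 5.38 ± 1.30 FPKM (SD, n = 4), a ratio of 1.47. The log2 fold change was 0.50 with a standard error of 0.17 (limma, adjusted p = 0.372; exact permutation p = 0.0571, two-sided). It was 0.43 without KOAC10-8 and 0.35 without the low WT embryo KOAC9-1.

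Egr1 (ENSMUSG00000038418, chr18:34859823-34864984, plus strand), a zinc finger factor with fast and strong induction, was at 2.94 FPKM in KOAC8-6, 3.79 in KOAC10-5 and 4.98 in KOAC10-8, against 2.29 in KOAC8-1, 3.87 in KOAC10-7, 2.96 in KOAC9-1 and 3.35 in KOAC10-2, the WT embryos. The groups overlapped through most of their range. Egr1 had a log2 fold change of 0.25 with a standard error of 0.18 (limma, adjusted p = 0.620), and 0.09 without KOAC10-8.

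Ier2 (ENSMUSG00000053560, chr8:84661331-84662852, minus strand), a nuclear protein of less clear function, was at 34.8, 30.5 and 43.9 FPKM in KOAC8-6, KOAC10-5 and KOAC10-8, and at 25.9, 29.8, 25.3 and 32.0 FPKM in KOAC8-1, KOAC10-7, KOAC9-1 and KOAC10-2. The WT embryo KOAC10-2 lay above the KO embryo KOAC10-5, so the groups overlapped. Ier2 had a log2 fold change of 0.34 with a standard error of 0.14 (limma, adjusted p = 0.415), and 0.20 without KOAC10-8.

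Of the feedback inhibitors, Dusp1 had a log2 difference close to that of Egr1, and Btg2 had the smallest of the 9 genes. Dusp1 (ENSMUSG00000024190, chr17:26505590-26562128, minus strand), a phosphatase that switches off MAP kinases, was at 10.6, 13.3 and 13.7 FPKM in KOAC8-6, KOAC10-5 and KOAC10-8. The WT embryos KOAC8-1, KOAC10-7, KOAC9-1 and KOAC10-2 were at 9.70, 10.73, 9.99 and 11.7 FPKM. The KO embryo KOAC8-6 lay within the WT range. Its log2 fold change was 0.23 with a standard error of 0.10 (limma, adjusted p = 0.462). Ergic1, on the opposite strand, overlaps exons of Dusp1 and was at 57.1 to 77.2 FPKM, but it shared none of the 50-base stretches of Dusp1 transcripts.

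Btg2 (ENSMUSG00000020423, chr1:134075170-134079120, minus strand), an antiproliferative protein also used by neural progenitors that are about to make neurons, was at 27.0, 28.2 and 24.4 FPKM in KOAC8-6, KOAC10-5 and KOAC10-8, and at 25.2, 23.7, 26.3 and 27.8 FPKM in KOAC8-1, KOAC10-7, KOAC9-1 and KOAC10-2. It was the only tested gene of the group with KOAC10-8 in the lower part of its range. The log2 fold change was 0.04 with a standard error of 0.07 (limma, adjusted p = 0.849), and its direction turned to -0.000133 when KOAC10-5 was left out.

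**Figure D2:**
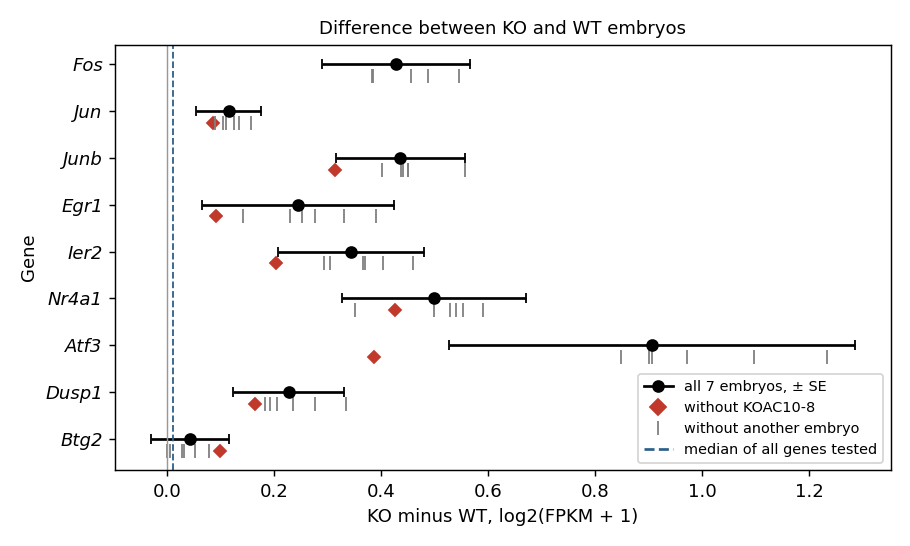
Difference between KO and WT embryos in log2(FPKM + 1) (horizontal axis) for the 9 tested genes, with its standard error, and below each the same value with 1 embryo left out; the red diamond is the value without KOAC10-8. All 9 points lie above 0 and above the dashed line, the median of all genes tested (0.01), and Atf3 moves most, from 0.91 to 0.39. Fos has no diamond because its mean fell below the filter without that embryo.

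The count of 5 genes at an unadjusted p under 0.05 (Fos, Junb, Ier2, Atf3 and Nr4a1) depended on single embryos. Without KOAC10-8 it was 2 (Junb and Atf3) of the 8 genes still tested, against 3.31% of all genes, and the median log2 fold change was 0.18. Without the WT embryo KOAC8-1, KOAC10-7 or KOAC9-1 it was 3, and without KOAC10-2, whose library number stood apart, it was 6, with a median of 0.40. The share of all genes is not given for these fits. A change in the count therefore cannot be told from a change over all genes. The number of genes whose groups did not overlap was 4 without KOAC10-8 and ran from 4 to 6 over the 7 embryos left out in turn. Smaller groups are more easily free of overlap, and the share of all genes was not computed for them. These counts therefore do not show that the separation is stable. Compared within KOAC8, 1 KO against 1 WT embryo, all 9 genes were higher in the KO embryo, with a median log2 difference of 0.27. Within KOAC10, 2 against 2 embryos, all 9 were again higher in KO embryos, with a median of 0.25. The medians of all genes tested within these sets were -0.000561 and 0.02, and the share of all genes higher in KO embryos is not given for them. Both sets reuse embryos of the main comparison and are not separate evidence. KOAC9 held WT only and gives no such value.

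The immediate early genes varied together over the embryos. The SD of log2(FPKM + 1) over the 7 embryos had a median of 0.28 in the 9 genes and of 0.13 in all genes tested. Atf3 lay at percentile 96.9 of all genes by this SD, Nr4a1 at 90.5, Fos at 86.3, Junb at 85.6, Egr1 at 85.5, Ier2 at 84.1 and Dusp1 at 70.0, whereas Jun at 26.3 and Btg2 at 26.1 varied less than the median gene. Of the 10 genes, 8 were highest in KOAC10-8, in which 26.4% of all genes tested were highest, and 9 were highest in a KO embryo, as were 50.1% of all genes. All 10 had their lowest value in a WT embryo, against 53.6% of all genes, with 4 of them in KOAC9-1, 3 in KOAC8-1 and 3 in KOAC10-7.

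Pearson's r between pairs of the 9 genes over the 7 embryos had a median of 0.687, and 32 of 36 pairs were above 0, the other 4 all with Btg2. The pairs ran from -0.267 for Atf3 with Btg2 to 0.935 for Junb with Ier2. Fos and Junb were nearly as close, at 0.932. Part of this is the shared difference between genotypes: with the genotype means removed the median was 0.430, and 28 of 36 pairs were above 0. Without KOAC10-8 the median was 0.529, and the pairs below 0 were Fos with Egr1 and Egr1 with Atf3, at -0.307 and -0.372. All pairs share the same libraries, so these values describe the embryos and carry no test.

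The mean z-score of the 9 genes gives each embryo 1 value. It was 1.32 in KOAC10-8, 0.408 in KOAC10-5 and 0.351 in KOAC8-6, and among WT embryos 0.102 in KOAC10-2, -0.577 in KOAC10-7, -0.730 in KOAC8-1 and -0.879 in KOAC9-1. The KO embryos therefore stood above the WT embryos, but KOAC10-2 was closer to KOAC8-6 than to any other WT embryo. The relative depth of the KO embryos, at 1.05 to 1.14, was above that of 3 WT embryos, at 0.811 to 0.893, whereas KOAC9-1, the lowest in score, was the deepest at 1.22. The part of depth in the score was not tested.

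**Figure D3:**
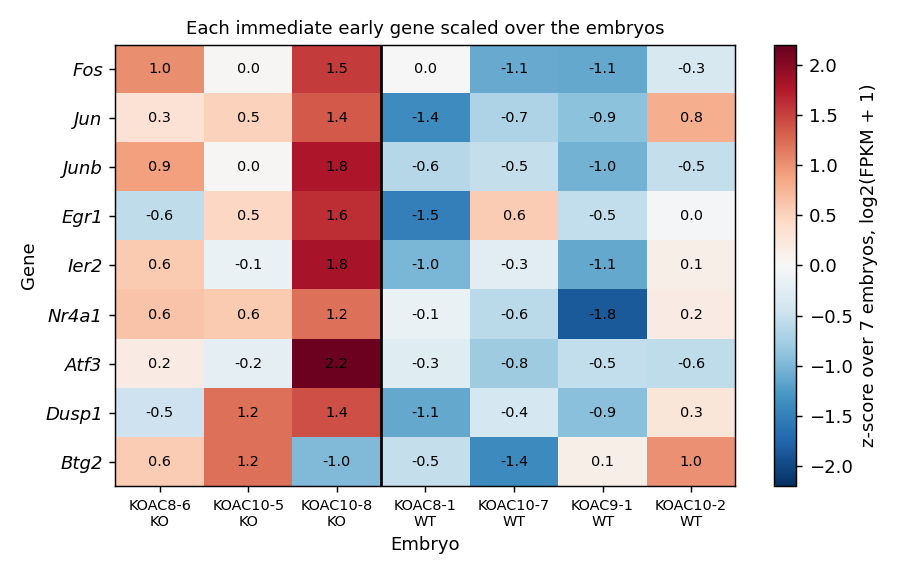
Scaled values (z-scores, from log2(FPKM + 1), as colour and printed value) of the 9 tested genes (rows) in each embryo (columns, KO left of the black line). The column of KOAC10-8 is red in 8 of 9 rows, with Atf3 the highest at 2.2, and the column of KOAC9-1 is blue in all rows except Btg2.

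The genes outside the group whose pattern over the 7 embryos was most like this mean score were Fam181b (r = 0.996), Sox2 (0.992), Tctn1 (0.992), Zfp62 (0.992) and Hnrnph3 (0.988). At the looser cut of r above 0.9 there were 266 genes, or 1.65%. The 5 genes named were picked for having the highest r over 7 points, so their r carries no test. Sox2 was at 53.4, 56.5 and 74.5 FPKM in KOAC8-6, KOAC10-5 and KOAC10-8, and at 39.9, 43.2, 40.5 and 50.3 FPKM in KOAC8-1, KOAC10-7, KOAC9-1 and KOAC10-2. Sox2 marks neural progenitors, and most of the list of 7 neural progenitor genes had the same direction. At an unadjusted p under 0.05, 5 of 7 were higher in KO embryos (5.27% of all genes), and 3 without KOAC10-8 (3.31% of all genes). Neurog2 was highest in the WT embryo KOAC10-2, at 22.7 FPKM, and Fabp7 had a log2 fold change of -0.02. The summed FPKM of that list was 662 to 738 in KO embryos and 601 to 688 in WT embryos, with Fabp7, at a mean of 365 FPKM, the largest part. Limma called 0 of the 7 at the adjusted threshold. The part of neural tissue content in the immediate early values was not tested.

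The embryo names gave a second comparison. Between the 4 KOAC10 embryos and the 3 of KOAC8 and KOAC9, with genotype in the model, limma called 0 of 9 genes, where 0.0249% of all genes were called. Of the 9 genes, 2 had an unadjusted p under 0.05 and were higher in KOAC10, against 3.59% of all genes. These were Dusp1, with a log2 difference of 0.23 and a standard error of 0.06 (limma, adjusted p = 0.556), and Egr1, with 0.39 and 0.12 (limma, adjusted p = 0.556). Dusp1 averaged 12.4 FPKM in KOAC10 embryos and 10.1 FPKM in the others, and Egr1 averaged 4.00 and 2.73 FPKM. The median log2 difference of the 9 genes was 0.11, beside 0.003 for all genes. Liver transcripts differed between these sets without separating them. The 10 liver genes had a median log2 difference of -2.53, and limma called 0 of them. KOAC10-8, at a summed 517 FPKM, lay within the range of the KOAC8 and KOAC9 embryos, at 429 to 797 FPKM. With Afp as a covariate the median of the 9 genes became 0.32. KOAC10-8 was the only KOAC10 embryo with high Afp, at 308 FPKM, so that value leans on 1 embryo.

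The wider set of 48 other genes that are induced early by growth factors, depolarisation or stress had a smaller median difference. Of 41 tested, limma called 0, 9 were higher in KO embryos (5.27% of all genes) and 1 lower at an unadjusted p under 0.05, 7 had all KO embryos above the WT range (5.61% of all genes), and the median log2 fold change was 0.06, beside 0.34 in the 9 immediate early genes. The leading genes were Bhlhe40, a transcriptional repressor that answers hypoxia and many other signals, and Ier3, a stress-induced survival factor. Bhlhe40 was at 3.90, 3.40 and 3.45 FPKM in KOAC8-6, KOAC10-5 and KOAC10-8, and at 2.15 to 2.52 FPKM in WT embryos (log2 fold change 0.44, standard error 0.08, limma, adjusted p = 0.274). Ier3 was at 1.94, 2.26 and 2.40 FPKM in the same KO embryos, against 1.21 to 1.58 FPKM in WT embryos (log2 fold change 0.42, standard error 0.09, limma, adjusted p = 0.279). The most abundant genes of the set were Jund, an AP-1 partner that is always made, and Zfp36l1, a protein that speeds decay of short-lived mRNAs. Their log2 fold changes were 0.08 (limma, adjusted p = 0.698) and 0.21 (limma, adjusted p = 0.354). Of the 41 tested, 14 were highest in KOAC10-8, as were 26.4% of all genes. Without that embryo, 6 were higher (3.31% of all genes) and 1 lower.

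The kinases and standing factors that act on these promoters were nearly level. Among 22 such genes limma called 0, and the median log2 fold change was 0.007. At an unadjusted p under 0.05, 1 of the 22 was higher in KO embryos, near the 5.27% of all genes, and 0 were lower (6.19% of all genes). That gene was Map2k1, a kinase that activates ERK, at 32.9 to 34.0 FPKM in KO and 29.0 to 31.7 FPKM in WT embryos. Its log2 fold change was 0.15 with a standard error of 0.05 (limma, adjusted p = 0.363). These are transcript levels, and the activity of the kinases was not measured. Srf itself was at 27.7 to 36.6 FPKM in KO embryos and 30.2 to 34.6 FPKM in WT embryos, with overlapping groups.

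The genes of the integrated stress response, in which ATF4 drives amino acid supply and stress genes, Atf3 among its targets, set KOAC10-8 apart. The list held 10 genes and 11 rows, because 2 identifiers carry the name Ddit3, and limma called 0 of 11. Of the 11 rows, 9 were highest in KOAC10-8, as were 26.4% of all genes. Chac1, an enzyme that degrades glutathione, was at 29.6 FPKM in KOAC10-8 and at 0.360 to 1.36 FPKM in the other 6 embryos. Asns, which makes asparagine, was at 124 FPKM against 15.8 to 30.9 FPKM, and Trib3, a pseudokinase, was at 14.1 against 1.24 to 1.99 FPKM. Sesn2, a leucine sensor, was at 44.9 against 3.62 to 7.70 FPKM, and Atf4 itself at 162 against 78.1 to 97 FPKM. The list summed to 584 FPKM in that embryo, 278 in KOAC8-6, 243 in KOAC10-5 and 195 to 240 in WT embryos. The median log2 fold change of the list was 0.62 with all embryos and 0.09 without KOAC10-8. Ddit4, which restrains mTORC1 signalling, was an exception that did not rest on that embryo: it was at 58.8, 65.4 and 55.6 FPKM in KOAC8-6, KOAC10-5 and KOAC10-8, and at 35.4 to 42.2 FPKM in WT embryos (log2 fold change 0.62, standard error 0.09, limma, adjusted p = 0.165). The Ddit3 row ENSMUSG00000116429 also had all KO embryos above all WT embryos, at 19.5, 14.0 and 27.3 against 0 to 13.7 FPKM. Its log2 fold change was 1.85 with a standard error of 0.90 (limma, adjusted p = 0.482), and 0.44 in the other Ddit3 row. Ppp1r15a did not stand out in KOAC10-8: at 11.1 FPKM it lay within the WT range of 9.76 to 13.1 FPKM. The part of the integrated stress response in the immediate early values of KOAC10-8 was not tested.

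Set against the mean of the 4 WT embryos, the 9 immediate early genes had a median log2 difference of 0.30 in KOAC8-6, 0.19 in KOAC10-5 and 0.62 in KOAC10-8, whereas the medians of all genes tested were 0.004, -0.002 and 0.03. The integrated stress list had medians of 0.19, 0.01 and 1.71 in the same order. In KOAC8-6 and KOAC10-5, 8 and 9 of the 9 immediate early genes were thus above the WT mean, as were 8196 and 7921 of all 16095 genes. The integrated stress genes of KOAC10-5 were level with that mean. The hypoxia list ran the other way over the KO embryos, with medians of 0.52, 0.55 and 0.23.

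**Figure D4:**
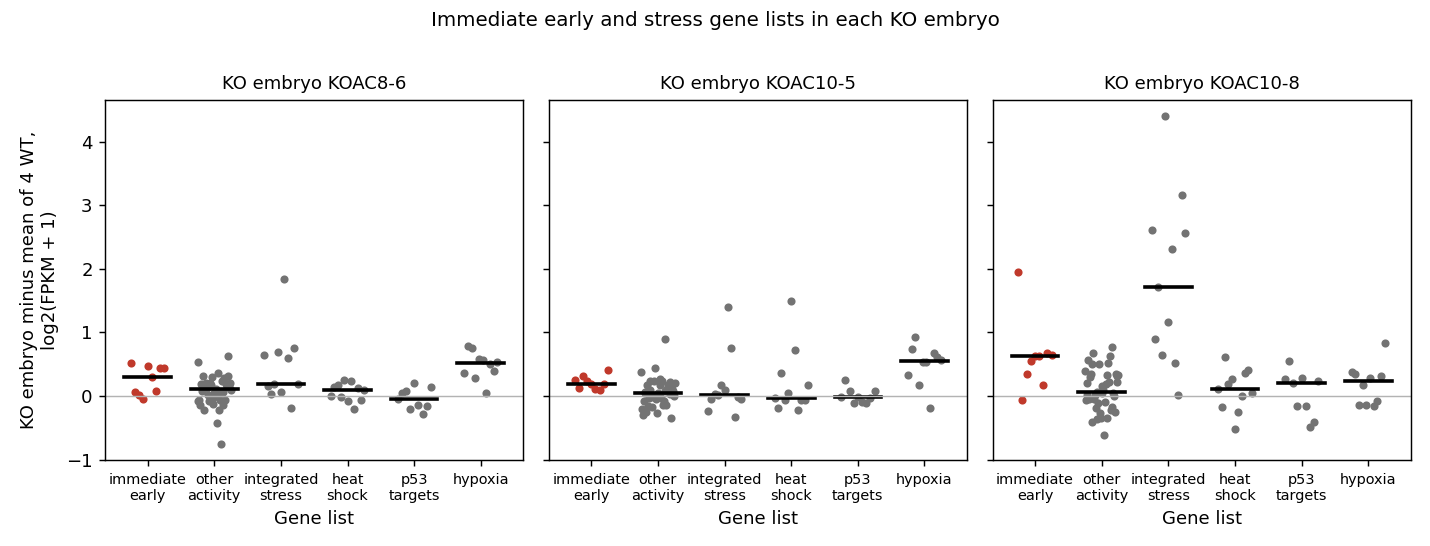
Each gene of 6 lists in each KO embryo (panels), as the difference in log2(FPKM + 1) from the mean of the 4 WT embryos (vertical axis); points are genes in alphabetical order within a list, and bars are list medians. The integrated stress genes stand out in KOAC10-8, with a median of 1.71, and the immediate early genes (red) have medians above 0 in all 3 panels.

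Of the remaining stress lists, hypoxia had its highest median in KOAC10-5, whereas heat shock and p53 targets had theirs in KOAC10-8. Of 10 hypoxia-induced genes, limma called 0, while 5 were higher in KO embryos at an unadjusted p under 0.05 (5.27% of all genes) and 7 without KOAC10-8 (3.31% of all genes). Vegfa, the main angiogenic growth factor, was at 92.1 FPKM in KOAC8-6, 94.6 in KOAC10-5 and 114 in KOAC10-8, and at 59.8 to 67.6 FPKM in WT embryos (log2 fold change 0.64, standard error 0.08, limma, adjusted p = 0.133). Ldha, the lactate-forming enzyme of glycolysis, had a log2 fold change of 0.46 with a standard error of 0.09 (limma, adjusted p = 0.274). Among 11 heat shock genes tested limma called 0, and Hsp90aa1 and Hmox1 were higher in KO embryos at an unadjusted p under 0.05 (5.27% of all genes). The inducible chaperones Hspa1a and Hspa1b were high in KOAC10-5, at 3.73 and 6.21 FPKM, against 0.293 to 0.639 and 0.789 to 1.89 FPKM in the other 6 embryos. The most abundant heat shock gene, Hspa8, was also highest in KOAC10-5, at 1613 FPKM, and lowest in KOAC10-8, at 816 FPKM. In contrast, 6 of the 11 were highest in KOAC10-8, as were 26.4% of all genes. The medians of the list against the WT mean were 0.10 in KOAC8-6, -0.03 in KOAC10-5 and 0.11 in KOAC10-8. They had the same order as those of the immediate early genes. Of 9 tested p53 targets, limma called 0, none was higher and Sesn1 was lower at an unadjusted p under 0.05 (6.19% of all genes). Their median was highest in KOAC10-8, at 0.20.

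Markers of several cell types also had lower or higher means in KO embryos. Of 8 skeletal muscle genes, 7 were lower in KO embryos at an unadjusted p under 0.05, with summed levels of 313 to 357 FPKM in KO and 462 to 594 FPKM in WT embryos, where 6.19% of all genes were lower. By the same measure 5 of 10 erythroid genes were lower, and 2 of 6 endothelial genes, Kdr and Pecam1, were higher (5.27% of all genes). The macrophage list had 0 of 5 tested genes past an unadjusted p under 0.05, with sums of 18.4 to 22.4 FPKM in KO and 20.5 to 26.2 FPKM in WT embryos. The neuron list had 0 of 6, with sums of 601 to 736 and 618 to 760 FPKM. At an unadjusted p under 0.05, 1 of the 10 liver genes, Ttr, was lower (6.19% of all genes). By the same cut 1 of the 7 embryo body genes was higher (5.27% of all genes). Of the placental genes 1 was abundant enough to test, Plac1, which did not pass. Limma called 0 genes of every one of these lists at the adjusted threshold. Their part in the immediate early values was not tested.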

How the data were processed

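Total RNA of 7 whole embryos was sequenced from TruSeq RNA v2 libraries. Per the labels, the submitters' processing notes name Salmon, DESeq2, MultiQC and GRCm38, without versions or roles. The authors deposited 1 FPKM value per gene and embryo, and all 7 columns were used. Columns of the authors' own comparison in the deposited table (mean signal, log2 fold change, its error, p-value and adjusted p-value) were not used. Counts of reads were not used here. Relative depth came from ratios of FPKM values under 0.5, and the number of reads is unknown, so no counting intervals are given.

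FPKM values were transformed to log2(FPKM + 1). Genes averaging 1 FPKM or more were tested with limma 3.58.1 in R 4.3.3 (lmFit, eBayes with trend), adjusted by Benjamini-Hochberg at 0.05 over 16095 genes. Single genes were compared with exact permutation tests in Python 3.11.15. The steps were tested on simulated data. Positions and shared 50-base stretches came from GENCODE M21, promoters from RefSeq. The genes and companion lists were chosen with earlier results of these data known. The rule for named genes admits the 10 genes, from each list the 2 with the smallest p and the 2 most abundant, and the 5 nearest patterns, and not all that it admits are described. Hspa1a, Hspa1b, Chac1, Asns, Trib3, Sesn2, Ppp1r15a and Srf were named after their values were seen. Alternatives were a pseudocount of 0.1, no filter, a minimum mean of 5 FPKM, median-ratio size factors, Afp or Xist as a covariate, a robust fit, the KOAC number as a block, and leaving out each embryo.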

Additional observations from a re-analysis of the deposited data

Results flagged for a closer look

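Of 79 genes examined for a WT embryo far from the other WT embryos, 1 was picked out, and chance alone would give about 1 in 20. Atf5, a factor of the integrated stress response, was at 16.1 FPKM in KOAC9-1 and at 14.6 to 14.8 FPKM in the other WT embryos, a gap of 0.864 of the range of that group. None of the 10 immediate early genes was picked out. The same gene was at 51.4 FPKM in the KO embryo KOAC10-8, and no group of 3 was examined in this way.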

How the results depend on the processing

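No immediate early gene was called in KO against WT embryos under any of the 15 alternatives, where the smallest adjusted p in the limma fit ran from 0.171 to 0.601, nor in KOAC10 against KOAC8 and KOAC9 under 14, where it ran from 0.255 to 0.970. The median log2 fold change stayed above 0, from 0.18 to 0.46 for genotype and from 0.09 to 0.32 for KOAC10, the latter with Afp as a covariate. The count of 5 genes at an unadjusted p under 0.05 became 2 at a minimum mean of 5 FPKM, which leaves out Fos, Junb, Egr1 and Atf3, and 3 with the KOAC number as a block, and ran from 2 to 6 when embryos were left out. For KOAC10 that count of 2 became 1 at a minimum mean of 5 FPKM and ran from 0 to 3 over the alternatives. Apart from the genotype fit without KOAC10-8, the shares of all genes under these alternatives are not given. Over all genes, 6 were called for genotype, 10 with Afp and 7 to 12 with an embryo left out (12 without KOAC8-1). For KOAC10, 4 were called, 2 with Afp, 2 with Xist and 3 to 67 with an embryo left out (67 without KOAC10-8 and 8 without KOAC8-1). Directions turned in genes near 0 when an embryo was left out: the log2 difference between genotypes ran from -0.000133 (without KOAC10-5) to 0.09891 in Btg2. The KOAC10 difference ran from -0.1348 to 0.02296 in Fos (above 0 without KOAC10-5, at 0.01941, or KOAC8-1), from -0.02211 (without KOAC10-8) to 0.1394 in Junb, from -0.2197 to 0.3445 in Atf3 (below 0 without KOAC8-6, at -0.1934, or KOAC10-8) and from -0.07549 to 0.03443 in Btg2 (above 0 without KOAC10-8, at 0.01921, or KOAC10-7). With Afp that of Fos was 0.23. The cause was not tested. Fos had no value without KOAC8-6 or KOAC10-8, where its mean fell below the filter. KOAC9 holds 1 embryo, so the block drops it from the genotype contrast. The median-ratio size factors were 1.004 in every embryo, so that alternative could hardly change any result and is no check. The number of reads behind low values such as those of Fos and Fosb is unknown, so their counting error cannot be given.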
